A study of Mus musculus with 6 samples.

Results

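The 10 genes described here make, load or control MHC class II molecules: H2-Aa, H2-Ab1, H2-Eb1, H2-DMa, H2-DMb1, H2-Oa, H2-Ob, Cd74, Ciita and Ctss. They were taken by name, as every non-control probe that carries one of these gene names in the scanner files (C2ta, an older name, for Ciita), which gave 15 of the 41174 probes on the array (10 of 19750 genes with a matched symbol). H2-Ab1 has 4 probes, H2-Aa and H2-Oa have 2 each, and the other genes have 1. Both kidneys of 3 CD-1 mice, an outbred stock, were hybridised to 6 single-colour Agilent arrays, 1 array per kidney. The ligated kidney is the left one, whose ureter had been tied completely, and the contralateral kidney is the untied right one of the same animal, which the series uses as its internal control. Mice are named by their labelled numbers 495, 485 and 512. Unilateral ureteral obstruction is a surgical model of kidney fibrosis, in which the untied kidney takes over the work of both and is not a kidney of an unoperated animal. The labels speak of kidney as the tissue and of primary cells as the cell type, and give no age, sex or time after ligation. All 11 kidney epithelial markers examined (among them Lrp2, Cubn, Umod and Aqp2) were above background on all 6 arrays.

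MHC class II molecules present peptides from engulfed material to CD4+ T cells. An alpha and a beta chain pair in the endoplasmic reticulum with the invariant chain Cd74, which guides them to acidic vesicles. There proteases trim Cd74 down to a fragment in the peptide groove, and H2-DM exchanges that fragment for peptides. Dendritic cells, macrophages and B cells carry these proteins constitutively, while tubular epithelium and other cells can make them after exposure to interferon-gamma. Transcription depends on Ciita, a coactivator that does not bind DNA itself and is held at class II promoters by RFX, CREB and NF-Y proteins on neighbouring elements called the X and Y boxes.

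The promoters below are shown because the genes changed together in these kidneys, and because the X and Y boxes are the shared feature for which this family is known. RefSeq promoter windows (build GRCm38.p6, 250 bases before to 50 after the gene's start) were matched for 7 of the 10 genes; H2-Ab1, Cd74 and Ciita had no entry. Each line gives 70 bases that end at -36 relative to the start, 5′ to 3′ on the gene's own strand. Capitals mark AACNGATG, letters from the X box, and ATTGG, the Y box core, both searched on either strand (CATCNGTT and CCAAT) and not overlapping each other. The letters were chosen with the sequences in view.
H2-Aa, chr17:34287859-34287928, minus strand: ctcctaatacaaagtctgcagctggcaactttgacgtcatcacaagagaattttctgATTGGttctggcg
H2-Eb1, chr17:34305762-34305831, plus strand: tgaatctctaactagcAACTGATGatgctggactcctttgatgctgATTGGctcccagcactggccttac
H2-DMb1, chr17:34153086-34153155, plus strand: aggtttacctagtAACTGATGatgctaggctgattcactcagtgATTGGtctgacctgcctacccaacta
H2-Oa, chr17:34092274-34092343, plus strand: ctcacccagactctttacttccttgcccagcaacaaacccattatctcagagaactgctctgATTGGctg
H2-Ob, chr17:34238800-34238869, plus strand: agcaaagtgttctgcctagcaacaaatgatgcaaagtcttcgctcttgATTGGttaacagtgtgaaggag

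ATTGG lay at -48 in H2-Aa, -59 in H2-Eb1, -61 in H2-DMb1, -43 in H2-Oa and -57 in H2-Ob. AACNGATG occurred in H2-Eb1 and H2-DMb1, starting 30 and 31 bases before ATTGG. Within whole windows, 6 of the 7 genes held ATTGG on either strand and 3 held AACNGATG. Among all 32851 promoter windows the shares were 37.4% and 2.32%, and 0.88% held both. H2-DMa has 2 annotated starts and held ATTGG at -198 of 1 of them, and the Ctss window held AACNGATG at -207 without ATTGG. A match describes the letters and is not a binding site, and a window without these letters is not shown to lack an X or Y box.

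The class II presentation genes were higher in the ligated kidney. Every one of the 15 probes had a higher signal in the ligated than in the contralateral kidney in each of the 3 mice, and 14 of 15 passed the test. Fitted changes lay between 2.38-fold (H2-DMb1) and 9.41-fold (Ctss). For 9 of the 10 genes all probes passed, and H2-DMb1 did not. These counts include H2-Ob, which entered the test only through the ligated kidneys and so had to differ. With only probes above background on all 6 arrays, which leaves H2-Ob out, 13 of 14 passed. Changes were tested with limma across 29093 probes with the mouse as a block and Benjamini-Hochberg adjustment, and a probe was called at an adjusted p under 0.05. Of all probes tested, 15.3% were called higher and 14.9% lower in the ligated kidney. The median log2 fold change of the 15 probes was 2.54, against -0.02 over all probes tested. In 14 probes, H2-Ob among them, every ligated kidney lay above every contralateral kidney, as it did for 24.2% of all probes. A rise within each of the mice was found for 33.9% of all probes. Without mouse 495 or without mouse 485, 0 of the 15 probes and 0 of all probes passed in limma, while all 15 kept an unadjusted p under 0.05 (7194 and 7401 of all probes did).

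**Figure D1:**
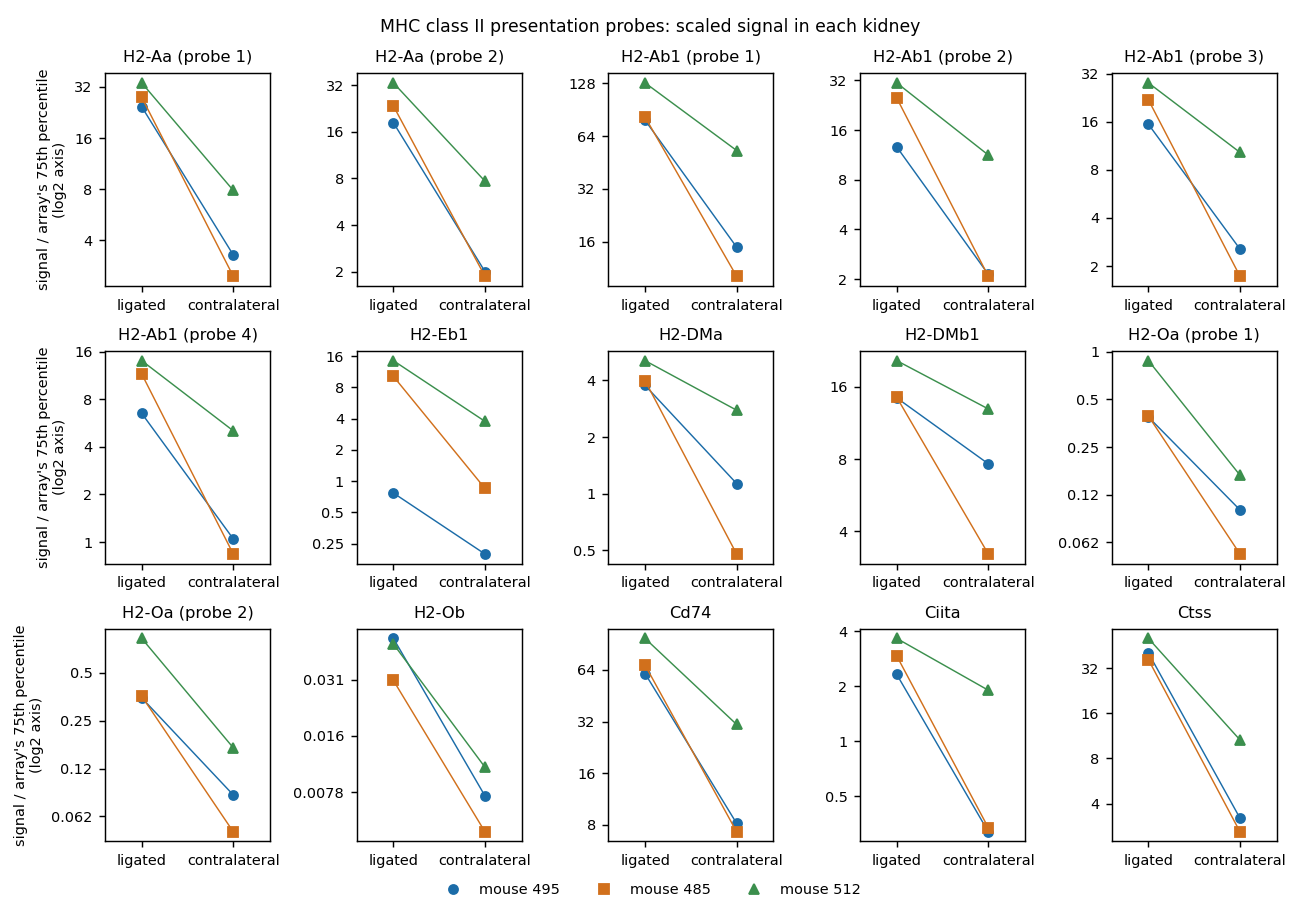
Signal of each of the 15 probes in the ligated and the contralateral kidney, as a multiple of the array's 75th percentile on a log2 axis with its own range per panel. Lines join the 2 kidneys of a mouse. All lines fall toward the contralateral kidney, where mouse 512 (triangles) is the highest of the 3 animals in all 15 panels.

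Levels below are processed signals divided by the 75th percentile of the array. They may be compared between arrays for one probe, but not between probes. Kidneys are given in the order of mice 495, 485 and 512. An array measures tissue as a whole, so more class II RNA per cell and more cells that carry it cannot be told apart.

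The contralateral kidney of mouse 512 stood apart. It was the highest of the 3 contralateral kidneys for all 15 probes, by 0.83 (H2-Ob) to 3.19 (H2-Eb1) on the log2 scale above the mean of the other 2, with a median of 1.99 against -0.03 over all probes. The ligated kidney of mouse 512 was likewise the highest of the 3 ligated ones for 14 probes. The change within mouse 512 was the smallest of the 3 for 13 probes, and mouse 485 had the largest for 14. The medians of the 15 changes were 2.59 in mouse 495, 3.23 in mouse 485 and 1.67 in mouse 512. The kidneys of mouse 512 shared slide 2, while the other 4 arrays shared slide 1, so that slide cannot be told apart from this animal. An unpaired fit without the contralateral kidney of mouse 512 called 14 of 15 probes, with a median of 3.27. The paired fit without mouse 512 called all 15, with a median of 2.99, where 26.5% of all probes were called higher.

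Ciita, the coactivator on which class II transcription depends, rose 4.94-fold (log2 fold change 2.31 ± 0.50 SE, adjusted p = 0.0397 in limma, n = 3 mice). Its probe (chromosome 16, 10439788 to 10439847 in build mm8) read 2.32, 2.92 and 3.65 in the ligated kidneys, against 0.320, 0.337 and 1.90 in the contralateral ones. The contralateral value of mouse 512 was 5.94 times that of mouse 495, which was the widest gap between these 2 kidneys apart from that of H2-Eb1. The change in mouse 512 was 0.94 on the log2 scale, against 2.86 and 3.12 in mice 495 and 485. Ciita was not called with no filter on dim probes (adjusted p = 0.0572) or without the mouse block (0.0574).

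The 2 probes of H2-Aa, the alpha chain of the I-A molecule, changed alike. The first (A_51_P119760, chromosome 17, 33892022 to 33892081 in mm8) read 24.4, 27.8 and 33.8 in ligated kidneys and 3.27, 2.45 and 7.85 in contralateral ones. Its rise of 7.15-fold (2.84 ± 0.31, adjusted p = 0.0231 in limma, n = 3) exceeded the spread within either group, and the groups lay apart. The second (A_52_P343306, 33892680 to 33892739) read 18.3, 23.5 and 33.1 in ligated kidneys, against 2.01, 1.87 and 7.69 in contralateral ones, a rise of 7.89-fold (2.98 ± 0.35).

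H2-Ab1 encodes the beta chain that pairs with H2-Aa, and its 4 probes rose 4.70-fold to 6.19-fold. The brightest (A_52_P683598, chromosome 17, 33877309 to 33877368) read 78.8, 82.1 and 129 in ligated kidneys, against 14.9, 10.2 and 53.0 in contralateral ones, with a log2 fold change of 2.23 ± 0.38 (adjusted p = 0.0303 in limma, n = 3). Probe A_51_P215237 (33875638 to 33875697) is printed 10 times on each array, and its spots varied with a coefficient of variation between 2.18% and 2.44%. Its means were 12.6, 25.0 and 30.9 in ligated kidneys and 2.13, 2.08 and 11.3 in contralateral ones. The log2 fold changes of the remaining 3 probes were 2.54 ± 0.45, 2.57 ± 0.47 and 2.63 ± 0.48.

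A pair of the H2-Ab1 probes reads the same stretch of the gene in different letters, which matters in an outbred stock because class II chains are among the most variable proteins between mouse strains. The last 31 bases of probe A_52_P570717 overlap the first 31 of A_51_P215242 and match in 29 of them. The differences are A5T and A20T, counted from the first base of the overlap, with the letter of A_52_P570717 first; capitals mark them.
H2-Ab1 probe A_52_P570717: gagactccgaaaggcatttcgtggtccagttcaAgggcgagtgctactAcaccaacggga
H2-Ab1 probe A_51_P215242: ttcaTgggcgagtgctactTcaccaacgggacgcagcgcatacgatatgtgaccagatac

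Probe A_52_P570717 read 6.51, 11.5 and 14.03 in ligated kidneys and 1.05, 0.840 and 5.05 in contralateral ones. A_51_P215242 (33872973 to 33873032) read 15.4, 21.9 and 28.0 in ligated kidneys, against 2.55, 1.73 and 10.3 in contralateral ones. Their changes within each mouse were close. They were 2.64 and 2.59 on the log2 scale in mouse 495, 3.78 and 3.67 in mouse 485, and 1.47 and 1.45 in mouse 512. Both kidneys come from the same animal, so a poor match to its alleles would affect both alike. These changes therefore cannot show whether the letters matter. Between mice, the ligated level of mouse 485 was 1.77 times that of mouse 495 by A_52_P570717 and 1.42 times by A_51_P215242. For mouse 512 the ratios were 2.16 and 1.82. The part of the letters in this was not tested.

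H2-Eb1, the beta chain of the I-E molecule, rose 5.63-fold in the paired fit (2.49 ± 0.40, adjusted p = 0.0290 in limma, n = 3) and was the only member whose groups overlapped. Its probe lies on chromosome 17 between 33922800 and 33923261 in mm8, a span that includes sequence outside the probe. The levels were 0.767, 10.2 and 14.4 in ligated kidneys, against 0.198, 0.849 and 3.76 in contralateral ones. Both kidneys of mouse 495 were thus far below those of the other animals, and its ligated kidney was below the contralateral kidneys of mice 485 and 512. The rise within mouse 495 (1.95 on the log2 scale) was close to that within mouse 512 (1.94), and both were smaller than the 3.58 of mouse 485. The call needed the pairing: adjusted p was 0.221 without the mouse block, 0.124 with the slide as the block and 0.0818 in the unpaired fit without the contralateral kidney of mouse 512.

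The H2-Eb1 probe is printed because the file is ambiguous about it: the gene name reads H2-Eb1, while the description names an I-A beta mRNA of the NOD strain.
H2-Eb1 probe A_51_P393226: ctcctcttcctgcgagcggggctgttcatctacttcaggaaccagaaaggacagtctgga
Set without gaps against the 4 H2-Ab1 probes on either strand, it matched at most 25 of 54 aligned bases, and its position in mm8 lies between the probes of H2-Aa and H2-Eb2. A probe for another stretch of H2-Ab1 could also fail to match these 4, so the alignment alone cannot settle which gene is read. In mm8 the probe is placed at 33922800 to 33923261, whereas the H2-Ab1 probes with a position lie between 33872973 and 33877368.

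The size of the gap between mouse 495 and the other mice set the E chains beside each other. In ligated kidneys the H2-Eb1 level of mouse 485 was 13.3 times, and that of mouse 512 was 18.8 times, the level of mouse 495. The other 14 probes had ratios between 0.595 and 1.98 for mouse 485 and between 0.933 and 2.45 for mouse 512. H2-Ea, the alpha chain that pairs with H2-Eb1 and no member of the 10, read 0.109, 3.14 and 3.90 in ligated kidneys and 0.0193, 0.209 and 1.16 in contralateral ones, so that mouse 485 had 29.0 times and mouse 512 had 35.9 times the ligated level of mouse 495. The H2-Ea probe was not well above background in the contralateral kidney of mouse 495, so it entered the test only through the ligated kidneys. It rose by 2.72 ± 0.46 in the paired fit (adjusted p = 0.0304 in limma, n = 3), a call that was lost when the mouse block was dropped (0.301), with the slide as the block (0.204), with normexp background correction (0.0655) or in the unpaired fit without the contralateral kidney of mouse 512 (0.115). RefSeq lists H2-Ea of C57BL/6J as a transcribed pseudogene, and the H2 haplotypes of these 3 animals were not tested. No test was made of the difference between animals, since each has 1 kidney per group.

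**Figure D2:**
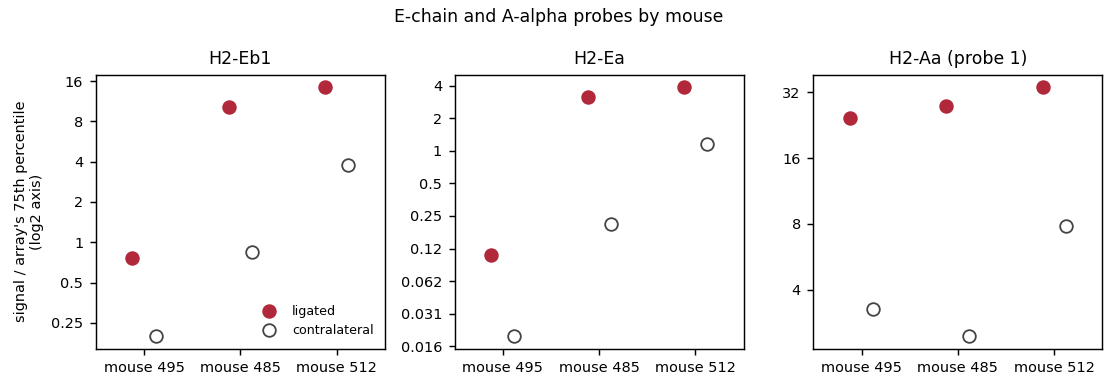
Scaled signal of H2-Eb1, H2-Ea and the first H2-Aa probe by mouse, with ligated kidneys as filled and contralateral kidneys as open circles, on log2 axes. For both E chains mouse 495 reads low in both kidneys (H2-Eb1 0.767 and 0.198), while its ligated H2-Aa value of 24.4 lies near the 27.8 and 33.8 of the other mice.

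Cd74, the invariant chain that escorts new class II molecules, rose 6.06-fold (2.60 ± 0.36, adjusted p = 0.0258 in limma, n = 3). It read 60.9, 68.2 and 97.8 in ligated kidneys, against 8.15, 7.28 and 30.8 in contralateral ones, and the groups lay apart. In mm8 the probe covers 60937790 to 60937847 of chromosome 18. Ctss, cathepsin S, is the protease that makes the last cuts in the invariant chain in professional presenting cells. It had the largest change of the 15 probes, 9.41-fold (3.23 ± 0.37, adjusted p = 0.0233), with 40.2, 36.4 and 50.4 in ligated kidneys and 3.203, 2.60 and 10.6 in contralateral ones. The ligated values of Ctss differed by less than those of the contralateral kidneys: their SD was 0.24 on the log2 scale, against 1.097. For 14 of the 15 probes the SD was larger among contralateral than among ligated kidneys. H2-Eb1 was the exception, at 2.31 and 2.12. The Ctss probe lies on chromosome 3 from 95641644 to 95641703.

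The chains of H2-DM, the peptide exchange factor, changed least. H2-DMa rose 3.71-fold (1.89 ± 0.46, adjusted p = 0.0483 in limma, n = 3), with 3.76, 3.98 and 5.09 in ligated kidneys and 1.13, 0.477 and 2.78 in contralateral ones. The groups lay apart, with the contralateral kidney of mouse 512 close below the ligated ones, and the call was lost with no filter (0.0690) or without the mouse block (0.0647). H2-DMb1 read 14.4, 14.5 and 20.6 in ligated kidneys, against 7.64, 3.21 and 12.9 in contralateral ones, which gave 2.38-fold (1.25 ± 0.35) and an adjusted p of 0.0612, short of the threshold. It passed with quantile normalization (0.0454), with an intensity trend (0.0497) and in the unpaired fit without the contralateral kidney of mouse 512 (0.0167). Its near-identical neighbour H2-DMb2 read 2.77, 3.42 and 4.22 in ligated kidneys and 1.29, 0.637 and 2.62 in contralateral ones, did not pass either (1.41 ± 0.39, adjusted p = 0.0595) and may share signal with it; a dimmer H2-DMb2 probe stood at 2.79. The H2-DMa probe spans 33747809 to 33748372 and that of H2-DMb1 33767055 to 33767114, both on chromosome 17.

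H2-Oa and H2-Ob form H2-DO, an inhibitor of H2-DM that is best known from B cells. The 2 probes of H2-Oa lie side by side on chromosome 17 (33705542 to 33705601 and 33705473 to 33705533). A_51_P449325 read 0.387, 0.393 and 0.880 in ligated kidneys, against 0.1002, 0.0527 and 0.166 in contralateral ones. A_51_P449329 read 0.348, 0.356 and 0.822 in ligated kidneys and 0.0853, 0.0501 and 0.169 in contralateral ones. They rose 5.34-fold and 5.21-fold (2.42 ± 0.23 and 2.38 ± 0.21, adjusted p = 0.0223 each in limma, n = 3). With normexp background correction the changes were 1.67 and 1.57 and still called. Here mouse 495 had the smallest change within a pair (1.95 and 2.03) and mouse 512 lay in the middle (2.40 and 2.28), unlike the other 13 probes, for which mouse 512 had the smallest.

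H2-Ob was the faintest member. Its probe (33852080 to 33852311) read 0.0522, 0.0310 and 0.0487 in ligated kidneys, against 0.00745, 0.00478 and 0.0106 in contralateral ones, where it was not well above background on any of the 3 arrays. The other 14 probes were above background on all 6. H2-Ob entered the test only through the ligated kidneys and so had to differ. It was at least 2.84-fold higher in ligated kidneys, a bound set by the lowest signal above background on each array (fitted 2.57 ± 0.19, adjusted p = 0.0223 in limma, n = 3). With normexp background correction, which compresses dim signals, its change was 0.04 and not called (0.917).

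**Figure D3:**
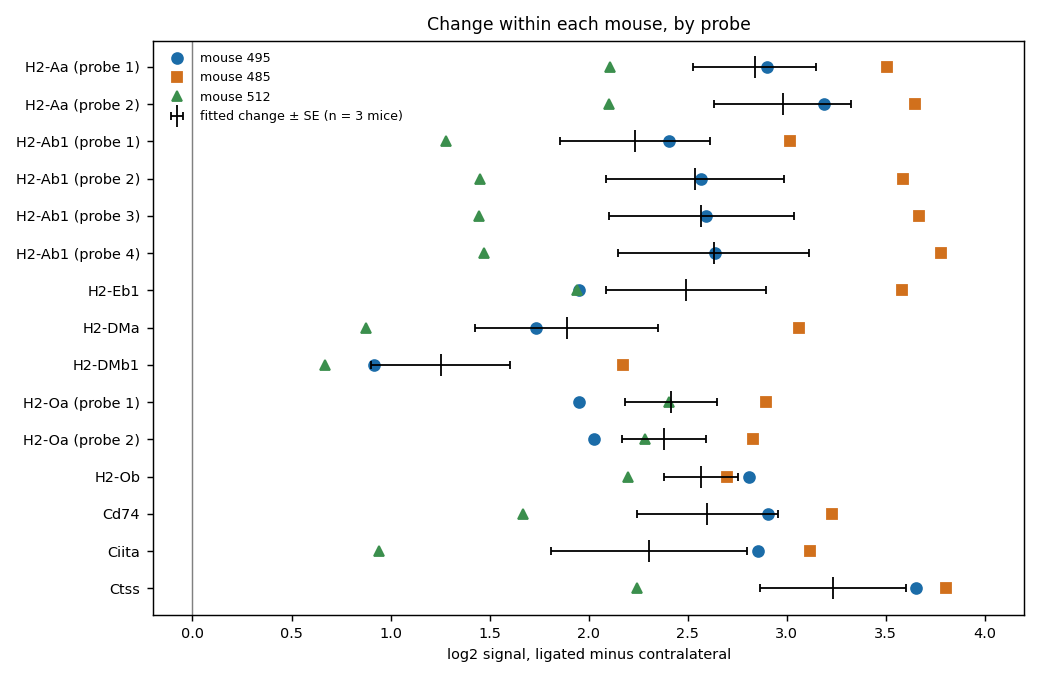
Log2 difference between the ligated and the contralateral kidney for each probe, with 1 symbol per mouse and the fitted change ± SE in black (n = 3 mice). All symbols lie right of 0, mouse 512 is leftmost for 13 of 15 probes, and the H2-Oa and H2-Ob rows are the ones where the mice lie closest together.

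No other gene of the class II processing machinery examined was called higher. Of 11 genes of antigen processing for class II, 0 were called higher and 2 lower (median -0.01), where 16.2% of 15217 genes, each by its brightest probe, were called higher and 16.9% lower. Lgmn, the asparagine endopeptidase that makes an early cut in the invariant chain and is abundant in proximal tubule, read 34.2, 43.3 and 41.5 in ligated kidneys and 110, 92.1 and 90.8 in contralateral ones (-1.30 ± 0.19, adjusted p = 0.0266 in limma, n = 3). Marchf8, a ubiquitin ligase that can remove class II molecules from the surface, fell 2.23-fold. Both falls were below the threshold on the spike-in scale (0.156 and 0.195), and that of Lgmn with quantile normalization (0.0847). Ifi30, the thiol reductase of the presenting compartment, stood at 0.41 ± 0.14 and was not called (adjusted p = 0.0863 in limma). The cathepsin genes Ctsl, Ctsb, Ctsd, Ctsh and Ctsz stood between -0.57 and 0.19, none of them called, and a second Ctsb probe at 0.62. In mice 495, 485 and 512, Ctsl changed by 0.73, 0.47 and -0.63 and Ctsd by 0.18, 0.39 and -0.57. Ctsz changed by 0.37, 0.08 and -0.48, Ctsb by -0.06, 0.02 and -0.87 and Ctsh by -0.61, -0.98 and -0.14. The contralateral kidney of mouse 512 lay above the mean of the other contralateral kidneys for Ctsl (1.24), Ctsd (1.02), Ctsz (0.71) and Ctsb (0.70). For Ctsh it lay below (-0.77).

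Among the DNA-binding factors of the class II promoter, 1 passed the test. Of the 7 genes Rfx5, Rfxap, Rfxank, Nfya, Nfyb, Nfyc and Creb1, 0 were called higher and 1 lower, with a median of 0.20. For this list and those below, the shares over all 15217 genes were 16.2% called higher and 16.9% lower. Nfyc, an NF-Y subunit, was the one that fell (-0.86 ± 0.18, adjusted p = 0.0387 in limma, n = 3), which was lost on the spike-in scale (0.419) and with no filter (0.0669). Rfx5 stood at 0.65 ± 0.29 (adjusted p = 0.1504).

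Genes of the interferon-gamma axis, which induces Ciita, were higher in part: 6 of 10 were called higher and 0 lower, with a median of 1.51. Ifng itself was above background on all 3 ligated arrays and 1 contralateral array, so it entered the test only through the ligated kidneys (fitted 2.85 ± 0.22, adjusted p = 0.0223 in limma, n = 3). Of the 9 genes measured on all 6 arrays, 5 were called higher, with a median of 1.08. With normexp its change was 0.38 and not called. The interferon-induced GTPase gene Gbp2 rose 8.18-fold and Irf8, a transcription factor of myeloid cells, 4.35-fold. Irf1, which acts on Ciita promoter IV, stood at 2.06 ± 0.52 and an adjusted p of 0.0506.

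Class I presentation, the parallel route for peptides from the cytosol, also rose. All 9 of its 10 genes with a probe were called higher, with a median of 1.44 against 2.54 for the class II probes. The immunoproteasome subunit genes Psmb8 and Psmb9 rose 6.17-fold and 4.73-fold and the peptide transporter gene Tap1 3.83-fold. In mice 495, 485 and 512 the medians were 1.67, 2.02 and 0.69 for class I genes and 2.59, 3.23 and 1.67 for class II probes, so that the class II median was the larger in each animal. The difference between the lists was not tested.

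Most markers of macrophages and dendritic cells were higher in ligated kidneys, as the members were. All 12 macrophage markers were above background on all arrays, and 11 were called higher and 0 lower (median 3.15). Mertk was the one not called (-0.80 ± 0.34, adjusted p = 0.139 in limma, n = 3). Mrc1 rose 12.2-fold, Adgre1 10.7-fold and C1qa 10.53-fold. The summed macrophage signal was 216 to 252.7 times the 75th percentile in ligated kidneys and 19.0 to 56.0 in contralateral ones. The Lyz2 probe made up most of it, and the sum without Lyz2 was 56.6 to 74.8 in ligated and 7.62 to 17.9 in contralateral kidneys. Of 10 dendritic cell markers 9 were called higher and 0 lower (median 2.24), with a summed signal of 11.2 to 17.4 in ligated and 1.12 to 5.92 in contralateral kidneys. All 10 were above background on the ligated arrays, against 5 to 8 on the contralateral ones. Of the called markers 5 entered the test only through the ligated kidneys and so had to differ. Of the other 5, measured on all 6 arrays, 4 were called higher (median 1.94). Xcr1 was not called by its brightest probe (-0.18 ± 0.20, adjusted p = 0.492 in limma, n = 3), while its other probe stood at 1.38. The homing receptor gene Ccr7, measured on 1 contralateral array, had a fitted change of 3.75 ± 0.39, which was 1.34 with normexp and still called. The integrin gene Itgax rose 8.76-fold, Clec10a 9.21-fold and Zbtb46, a transcription factor of conventional dendritic cells, 3.01-fold. The part of these cells in the rise of the members was not tested.

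In the contralateral kidney of mouse 512, macrophage and dendritic cell markers lay above the other contralateral kidneys by medians of 1.94 and 1.502 on the log2 scale, beside 1.99 for the class II probes. Of 11 kidney epithelial markers, 0 were called higher and 5 lower in ligated kidneys (median -0.95), the largest falls being those of the water channel gene Aqp2 (-2.88 ± 0.14) and the endocytic receptor genes Cubn (-2.25 ± 0.38) and Lrp2 (-2.25 ± 0.46), whose call was lost with no filter (0.0547). In the contralateral kidney of mouse 512 these markers lay at -1.505 relative to the other contralateral kidneys, and their summed signal was 229 to 256 in ligated kidneys, against 784, 744 and 261 in contralateral ones. Class I genes lay above by 1.104. By their medians, B cell and T cell markers did not share this position (-0.25 and -0.09), but their genes were split. Single genes ranged from -0.99 (Blk) to 1.91 (Fcer2a) for B cells and from -1.47 (Cd8b1) to 1.71 (Lck) for T cells.

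B cell markers followed another order among the animals. Of 9 tested, 4 were called higher and 0 lower (median 2.07), and their medians were 1.12, 1.499 and 3.51 in mice 495, 485 and 512. Of these 9, 5 entered the test only through the ligated kidneys, and of the 4 measured on all 6 arrays 1 was called higher, Cd79b. Cd22, a receptor that dampens B cell signalling, was measured on 2 contralateral arrays and Fcrla on 1. Their fitted changes of 3.08 and 3.03 were 0.99 and 0.67 with normexp and then not called (adjusted p = 0.127 and 0.268). Cd79b, part of the B cell receptor, read 1.51, 1.155 and 4.62 in ligated kidneys and 0.535, 0.241 and 0.552 in contralateral ones (2.27 ± 0.34, adjusted p = 0.0275 in limma, n = 3). The defining marker Ms4a1 was not called (2.68 ± 0.76, adjusted p = 0.0632 in limma, n = 3), and Pax5 was not tested because it was above background on 2 ligated arrays and 0 contralateral ones. The summed B cell signal was 2.17, 1.63 and 7.41 in ligated kidneys, against 0.851, 0.400 and 0.744 in contralateral ones. Of 9 T cell markers, 5 were called higher and 1 lower (median 2.22), or 4 and 1 of the 8 measured on all 6 arrays, among them Cd3d (8.92-fold), Cd3g and Lck. Their summed signal overlapped between the groups (3.201 to 4.88 in ligated and 2.32 to 5.40 in contralateral kidneys), since Cd8b1 fell by its brightest probe (-1.59), while its other probe stood at 3.15. Cd4 (0.08 ± 0.18), Cd3e (0.46 ± 0.25) and Cd8a (1.20 ± 0.35) were not called (adjusted p = 0.759, 0.209 and 0.0676 in limma, n = 3).

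**Figure D4:**
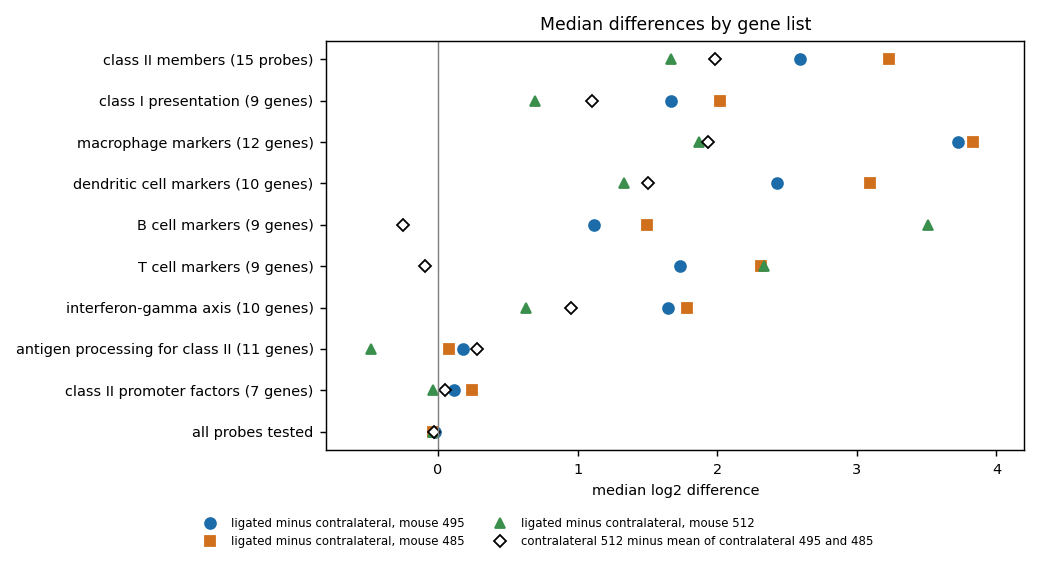
Median log2 difference between ligated and contralateral kidney by mouse (filled symbols), and median distance of the contralateral kidney of mouse 512 from the other 2 contralateral kidneys (open diamonds), for the class II probes, 8 gene lists and all probes. The diamond of the class II probes lies at 1.99 beside that of macrophage markers at 1.94, while those of B and T cell markers lie at -0.25 and -0.09.

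Across the 6 arrays, the genes most like the class II profile were named by a fixed measure. The profile was the centred mean of the brightest probes of H2-Aa, H2-Ab1, H2-Eb1 and Cd74, and the measure was the root mean square difference of centred log2 values. Of 15207 genes the nearest was H2-Q8, a class I-like gene of the Q region, at 0.21, with 1.73, 2.80 and 4.88 in ligated kidneys and 0.248, 0.430 and 1.50 in contralateral ones. H2-Q genes are alike in sequence, so this probe may also read its neighbours. Bmper (0.25), a secreted regulator of BMP signalling, A630023P12Rik (0.26), the collagen gene Col8a1 (0.27) and Stac2 (0.27) came next. Among the members, H2-Ab1 probe A_51_P215237 lay at 0.13, Ciita at 0.32, Ctss at 0.56 and H2-DMb1 at 0.89. The probes that made the profile lay at 0.32 (Cd74), 0.41 (H2-Ab1), 0.47 (H2-Aa) and 1.101 (H2-Eb1). Each of these probes was thus less like the profile than the 5 genes named above. Since the profile itself is higher in ligated kidneys, the choice fixed that these 5 genes are too, and their folds are not given as results. Bmper, A630023P12Rik and Stac2 were above background on 1 contralateral array each.

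H2-Eb2, the remaining class II gene of the locus with a probe, was not well above background on any contralateral array. It therefore entered the test only through the ligated kidneys and so had to differ. Against that background it was at least 1.22-fold higher in ligated kidneys (fitted 2.20 ± 0.39, adjusted p = 0.0311 in limma, n = 3), but with normexp the direction turned, to -0.18.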

How the data were processed

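Total RNA was labelled with Cy3, per the labels. In the deposited scanner files the processed signal is an intensity, from which Agilent Feature Extraction 10.5.1.1 had taken background and spatial trend, per the file headers; the submitters' processing notes name version 9.1. Spot means and local backgrounds are raw intensities, and flags are scores of 0 or 1, per the file headers. The deposited value table holds a ratio, the processed signal over the array's median (99% of spots within 0.00289%). Probe positions are in mm8.

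From 43379 non-control spots per array, outlier spots (43 to 79) were dropped; 24 probes without a value on some array were left out, and 0 spots were saturated. The log2 signal minus the array's 75th percentile (671 to 1432 processed units) was averaged per probe. Being above background needed a share of 0.5 of a probe's spots; between 65.3% and 74.2% of probes were. Probes above background on all 3 arrays of a group were tested: 29093, fitted with limma 3.58.1 in R 4.3.3 (two-sided, mouse as a block, 2 residual degrees of freedom and 2.13 prior ones). The number of arrays limits the precision. Log2 fold changes are ligated minus contralateral ± SE. The mouse numbers pair the kidneys. Deviations from group means correlated at 0.202, 0.474 and 0.279 within mice 495, 485 and 512, and between -0.305 and 0.0158 otherwise. Deviations from the mean of 3 arrays sum to 0, so this contrast follows in part from the centring. The kidneys of mouse 512 also shared a slide of their own, so its value cannot separate slide from pairing. Symbols came from RefSeq names (24375 of 41174 probes by accession), and the brightest probe stood for a list's gene. All member probes were named; from each other list, the 3 called genes with the largest change or, with none, that of smallest p; and the 5 genes nearest in profile. Further list genes given with values were chosen after their values were seen. Members and lists were chosen with earlier results of these data known. The fit was tested on simulated data. Scaling, background correction, filter, block, variance prior, source of values and the animals included were varied. Some genes of the lists are not reported here by name.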

Additional observations from a re-analysis of the deposited data

How the results depend on the processing

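All 15 member probes kept their direction under the 14 alternatives in which each could be fitted, and their median log2 fold change lay between 2.06 and 3.27. The number called lay between 11 and 15 with all mice, and was 11 with no replicate block, that is, without the mouse pairing; leaving out a mouse gave 0 to 15. Of all probes, 4444 were called higher and 4336 lower, or 50.6% of calls higher. Median centring gave 3632 and 9013 (28.7%), spike-in centring 3591 and 917 (79.7%), normexp 2578 and 4132 (38.4%), no filter 2572 and 1580 (61.9%), and the filter on all 6 arrays 3400 and 5071 (40.1%). Leaving out a mouse gave 0 to 7697 higher and 0 to 8181 lower, and the unpaired fit without the contralateral kidney of mouse 512 gave 7484 and 8456. The median of all probes was -0.33 with median centring, 0.32 with spike-in centring, -0.20 with normexp, -0.20 with no filter and -0.12 with the filter on all 6 arrays, and changes are relative to that shift. With normexp, the change of H2-Eb2 was -0.18. The cause was not tested. H2-Ob, H2-Oa, Ifng, Ccr7, Cd22, Fcrla and H2-Eb2 lie near background, which limits their folds.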
